A study of Mus musculus with 6 samples.

Results

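Collagens and the enzymes that modify them were examined in lungs of C57 mice on 2-colour arrays. The members are the rows of the deposited table whose platform symbol is a collagen chain (Col, digits, a, digits) or begins with P4ha, Plod or Lox, and that hold a value on at least 4 of the 6 arrays. This gave 36 probes for 35 genes, out of 52 probes for 50 genes that match by symbol and 17280 probes in the table, of which 11629 were tested. By class these were 8 fibrillar chains, 2 chains of basement membrane collagen IV, 17 chains of other types, and 9 probes for 8 modifying enzymes. Each array carried amplified total lung RNA of 1 C57 mouse that had received ovalbumin (spelled ovalbumen in the labels) for sensitization and challenge, set against 1 pool of amplified lung RNA from control C57 mice. The labels give no dose, schedule, age or sex, no number of mice in the pool, and no dyes. All mice and the pool are of 1 strain, and no control mouse was measured on its own.

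Values are log ratios of mouse and pool as the authors deposited them, read here as log2 and centred on the median of each array. If they were natural logarithms, each fold would be larger than given here. Which channel was divided by which is not stated. The titles name the OVA mouse first, yet Clca1 and Muc5ac, which are known to be induced in the airways by ovalbumin challenge, had negative means of -3.06 and -2.63. Ratios therefore keep their deposited sign, with sizes given as folds apart, and no statement is made on whether a negative value means more or less RNA in the OVA mice. The arrays held values for 10922 to 13132 probes, and their SD over tested probes ran from 0.215 in mouse 3 to 0.49 in mouse 1. The array of mouse 3 stood apart, with Clca1 at 0.842 where the other mice lay between -4.196 and -3.109. The lung markers Sftpc and Scgb1a1 had a value on all 6 arrays, but ratios give no level by which to judge the tissue.

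Collagens are secreted proteins whose chains repeat glycine at regular steps and wind around each other into a triple helix. Fibrillar types I, III and V form the cords that give lung its tensile strength, type IV forms the sheet of basement membranes, and the remaining types link, coat or anchor these structures. In the endoplasmic reticulum, prolyl hydroxylases (P4ha) stabilise the helix and lysyl hydroxylases (Plod) prepare lysines for crosslinking, while lysyl oxidases (Lox, Loxl) crosslink the fibrils outside the cell. Airway remodelling in asthma is known for collagen deposition beneath the epithelium.

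As examples of start regions, the 150 bases before the RefSeq start (GRCm38.p6) are given 5′ to 3′ for Col3a1, Col5a1 and Col6a3. These chains were all on the negative side. Col1a1 and Col9a3 had no start region in the RefSeq table. Capitals mark matches on either strand to the TATA box, searched as TATAAA, the CCAAT box, searched as CCAAT, or the GC box, searched as GGGCGG. Matches to different motifs can share bases.
Col3a1, chr1:45311388-45311537, plus strand: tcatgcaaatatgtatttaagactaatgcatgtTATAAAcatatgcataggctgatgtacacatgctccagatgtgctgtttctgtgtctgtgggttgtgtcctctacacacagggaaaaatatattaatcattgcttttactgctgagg
Col5a1, chr2:27886275-27886424, plus strand: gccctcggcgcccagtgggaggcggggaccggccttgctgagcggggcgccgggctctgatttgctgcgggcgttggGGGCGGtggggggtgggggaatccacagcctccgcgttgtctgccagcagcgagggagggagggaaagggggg
Col6a3, chr1:90843972-90844121, minus strand: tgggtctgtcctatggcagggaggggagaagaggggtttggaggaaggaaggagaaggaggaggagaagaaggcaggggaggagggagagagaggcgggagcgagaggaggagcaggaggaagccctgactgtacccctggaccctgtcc
These windows differ in base composition, with 37.3% G and C in Col3a1, 74.7% in Col5a1 and 62.7% in Col6a3, and share no match. Of the 35 member genes, 24 had 27 start regions in the part of the RefSeq table searched for members. That part left out a chromosome that the 32851 start regions used for comparison include, so the sets are not quite alike. The TATA letters were in 3 of the 27, against 7.57% of all 32851 start regions of this length. The CCAAT letters were in 5, against 24.5% of all, and the GC box letters in 14, against 28.6% of all. A match describes letters alone.

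Of the 36 member probes, 14 passed limma's test of the ratio against 0 at a Benjamini-Hochberg adjusted p of 0.05, 11 of them negative and 3 positive. Over all tested probes 24.4% passed, 12.3% negative and 12.0% positive, against 38.9% of the members. At least 2-fold apart and past the threshold were 2 members, Col3a1 and Col1a1, both negative, where the share over all tested probes was 1.50% for both signs and 1.07% for negative means. The ratio had 1 sign in every mouse with a value for 14 members, or 38.9%, against 30.2% of all tested probes. The members' median of mean ratios was -0.09, beside -0.004 over the 9774 tested genes. These counts moved with single mice: 9 members passed without mouse 2 and 17 without mouse 3. In whole lung, a different number of cells of a type and a different amount of RNA per cell cannot be told apart, whichever way the ratio runs.

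**Figure D1:**
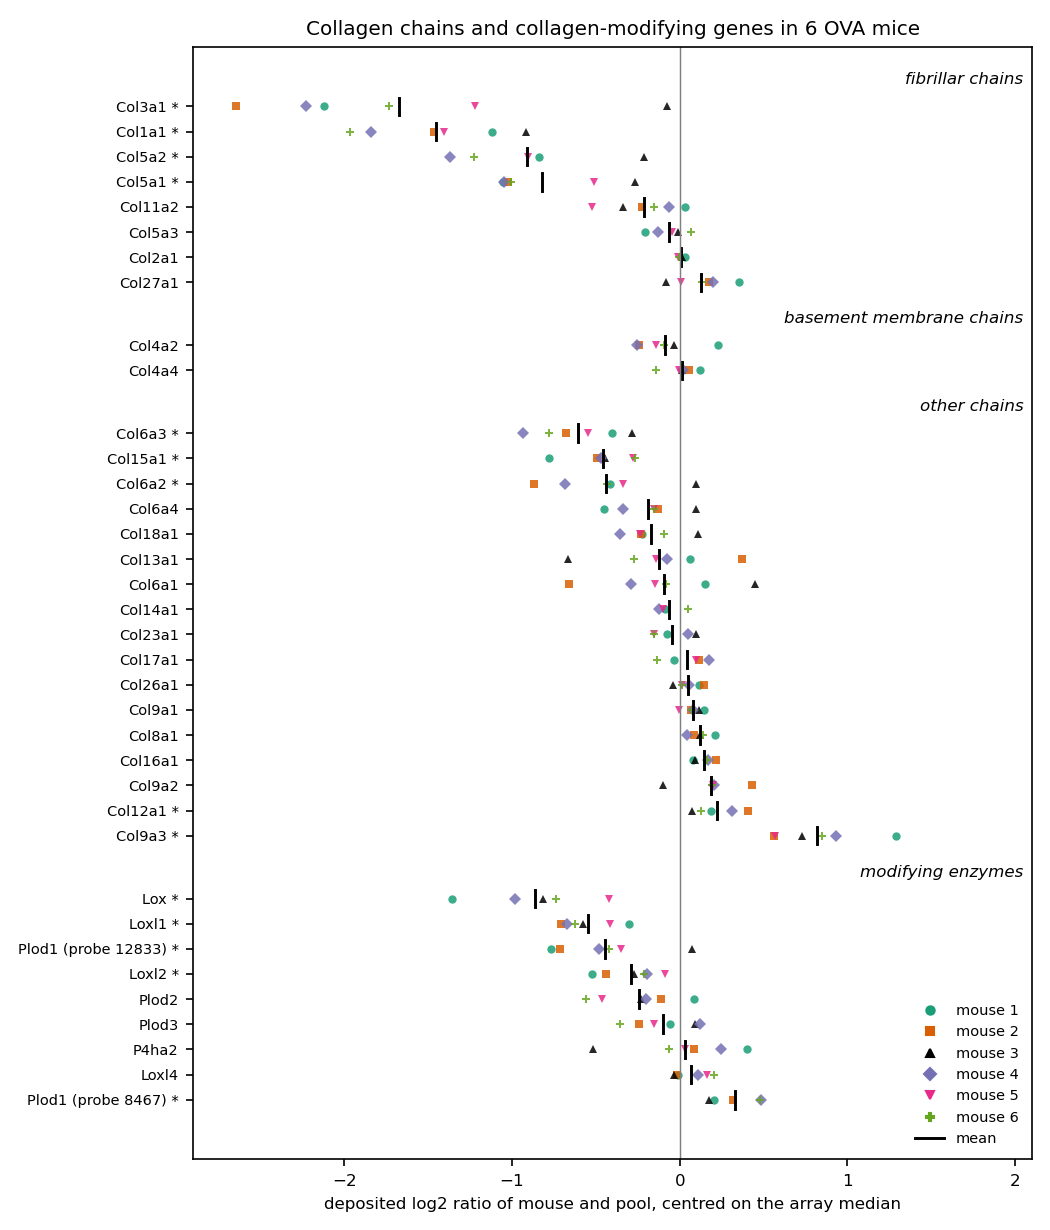
Deposited log2 ratio (x axis, centred on each array's median) of the 36 member probes, grouped by class and sorted by mean; each symbol is 1 mouse, the bar is the mean, and an asterisk marks an adjusted p under 0.05 in limma. Col3a1 and Col1a1 lie farthest to the left, Col9a3 lies farthest to the right, and the chains of collagen IV lie around 0.

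Fibrillar chains held both of the members that were 2-fold apart, and 4 of the 8 passed, all negative. The share of negative calls over all tested probes was 12.3%. Col3a1, the chain of the type III fibrils that are plentiful in lung and vessel walls, was at -2.122, -2.646, -0.075, -2.227, -1.22 and -1.735 in mice 1 to 6. Mouse 3 alone was close to 0, and the other mice lay at least 1 unit below it. The mean was -1.67 ± 0.92 (SD, n = 6; limma, adjusted p = 0.0109), which is 3.18-fold apart, and -1.99 without mouse 3.

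Col1a1, which supplies most of the chains of type I collagen, the main fibril of connective tissue, was at -1.12, -1.464, -0.914, -1.838, -1.403 and -1.966. All mice were clearly negative, mouse 3 included. The mean of -1.45 ± 0.40 (SD, n = 6) was 2.73-fold apart (limma, adjusted p = 0.0028). Its partner Col1a2, the other chain of the type I trimer, had no value on any array, so the trimer was measured through 1 of its chains.

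Type V collagen nucleates fibrils and sets their width. Col5a1 was at -1.056, -1.025, -0.267, -1.049, -0.509 and -1.007, a mean of -0.82 ± 0.34 (SD, n = 6; limma, adjusted p = 0.00597). Col5a2 was at -0.841, -0.216, -1.367, -0.902 and -1.228 in mice 1, 3, 4, 5 and 6, a mean of -0.91 ± 0.45 (SD, n = 5; limma, adjusted p = 0.0123). Mouse 3 was nearest to 0 for both chains. The difference between them, Col5a1 minus Col5a2, was 0.13 ± 0.26 (SD, n = 5) and had both signs among the mice. The remaining type V chain, Col5a3, stayed near 0 at -0.07 ± 0.11 (SD, n = 5) and did not pass (limma, adjusted p = 0.392).

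The remaining fibrillar chains did not pass. Col11a2, a chain of cartilage fibrils, was at -0.21 ± 0.20 (SD, n = 6; limma, adjusted p = 0.0735), with mouse 5 lowest at -0.523. Col2a1, the main cartilage fibril, was at 0.01 over 4 mice, and Col27a1 at 0.13 ± 0.15 (SD, n = 6). Col11a1 and Col24a1, like Col1a2, had no value.

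Basement membrane chains showed small ratios on both sides of 0, and neither of the 2 measured chains passed. Col4a2, which with Col4a1 makes the common type IV trimer of basement membranes, was at 0.229, -0.243, -0.035, -0.255, -0.143 and -0.091. Its mean was -0.09 ± 0.18 (SD, n = 6; limma, adjusted p = 0.357), and mouse 1 had the only positive value. Col4a4, a chain of the specialised type IV network of alveoli and glomeruli, was at 0.01 ± 0.09 (SD, n = 6; limma, adjusted p = 0.87). Outside the rule by 1 array, Col4a1 was at 0.207, -0.103 and -0.195 in mice 1, 2 and 4, and Col4a6 at 0.117, 0.037 and -0.039 in mice 4, 5 and 6. In mice 1, 2 and 4 the values of Col4a1 had the sign of those of Col4a2. Col4a3 and Col4a5 had no value.

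The median ratio over genes was -0.52 for the fibrillar class, -0.04 for the basement membrane class, -0.05 for other chains and -0.17 for modifying enzymes. The difference between fibrillar and basement membrane medians was -0.7, -0.931, -0.138, -0.933, -0.443 and -0.464 in mice 1 to 6. It was negative in 6 of 6 mice and smallest in mouse 3. The fibrillar class was likewise below the other chains in 6 of 6 mice, with differences from -1.111 in mouse 2 to -0.244 in mouse 3. Without Col2a1, the 1 fibrillar chain with a value on only 4 arrays, the fibrillar median was -0.82 over chains on at least 5 arrays. These differences are descriptions, since the basement membrane class rests on 2 genes and 4 of the 8 fibrillar chains did not pass.

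**Figure D2:**
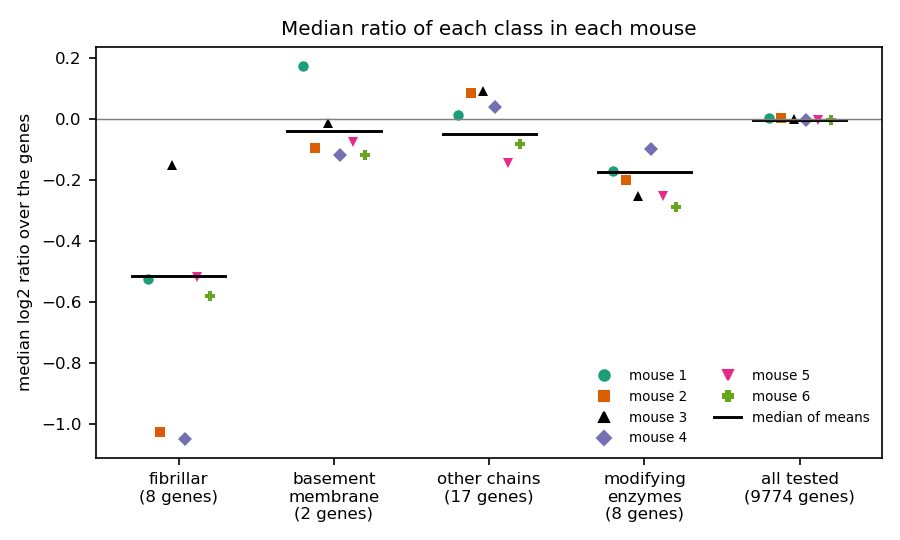
Median log2 ratio over the genes of each class (y axis) in each of the 6 mice (symbols), with the median of the genes' mean ratios as a bar. The fibrillar medians run from -1.049 to -0.15, those of collagen IV from -0.117 to 0.176, and those of all tested genes from -0.003 to 0.003.

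Single chains were set against each other within mice by an exact two-sided test that turns the signs of the differences, for 12 pairs in all. With 6 mice the smallest p this test can give is 0.0312, and after Benjamini-Hochberg adjustment over the 12 pairs none was under 0.05. Pairs at that smallest p reached an adjusted p of 0.0536, so missing 0.05 decides nothing about them. The comparison was also chosen after the values were seen, so its p-values describe the differences and are no independent support. Col1a1 was below Col4a2 in 6 of 6 mice, by 1.36 ± 0.34 on the log2 scale as a mean (exact permutation p = 0.0312, adjusted p = 0.0536). Col3a1 was also below Col4a2 in 6 of 6 mice, with a mean difference of -1.58 ± 0.90, and Col5a1 with -0.73 ± 0.38 (SD, n = 6; exact permutation p = 0.0312 and adjusted p = 0.0536 for each). In mouse 3 the difference between Col3a1 and Col4a2 was only -0.04. Col1a1 and Col3a1 did not keep an order: Col3a1 was lower in mice 1, 2 and 4 and Col1a1 in mice 3, 5 and 6 (mean difference 0.22 ± 0.78, exact permutation p = 0.531, adjusted p = 0.531). Probes can compress a ratio to different degrees, so a difference between 2 probes need not be one between transcripts.

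Among other types, 5 of 17 chains passed, 3 negative and 2 positive. This share of 29.4% was close to the 24.4% of all tested probes. The beaded-filament collagen VI, which lies between fibrils and cell surfaces, was measured through 4 chains. Col6a3 was at -0.403, -0.679, -0.286, -0.937, -0.549 and -0.782, negative in every mouse, with a mean of -0.61 ± 0.24 (SD, n = 6; limma, adjusted p = 0.00573). Col6a2 was at -0.414, -0.869, 0.099, -0.686, -0.341 and -0.432, with mouse 3 on the other side (mean -0.44 ± 0.33, n = 6; limma, adjusted p = 0.0308). The call for Col6a2 was lost when mouse 1, 2, 4, 5 or 6 was left out (adjusted p up to 0.093), and its probe lies beside a stronger probe of the same sign. Col6a1 did not pass at -0.10 ± 0.38 (SD, n = 6; limma, adjusted p = 0.62): mouse 2 was at -0.66 and mouse 3 at 0.45. Col6a4 was at -0.19 ± 0.19 (SD, n = 6; limma, adjusted p = 0.0895).

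The chains of the common type VI trimer were also compared within mice, and after adjustment no pair was under 0.05. Col6a1 was above Col6a2 in 6 of 6 mice by 0.34 ± 0.14 and above Col6a3 in 6 of 6 by 0.51 ± 0.27 (SD, n = 6; exact permutation p = 0.0312 and adjusted p = 0.0536 for each). In mouse 2 the gap between Col6a1 and Col6a3 was only 0.019. Col6a2 minus Col6a3 was 0.17 ± 0.22 and had both signs (exact permutation p = 0.125, adjusted p = 0.15).

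**Figure D3:**
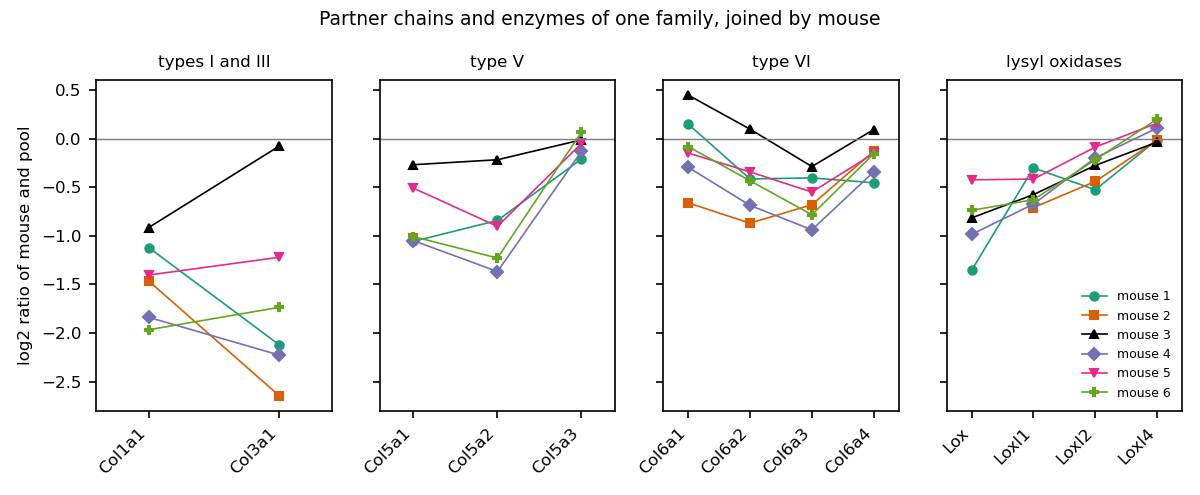
Log2 ratio (y axis) of chains of types I and III, V and VI and of lysyl oxidases, with the values of a mouse joined by a line; mouse 2 has no value for Col5a2, Col5a3 and Lox. The order of Col1a1 and Col3a1 differs between mice, Col6a1 lies above Col6a2 and Col6a3 in all 6 mice, and Col5a3 and Loxl4 lie near 0.

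The multiplexins XV and XVIII sit in and beneath basement membranes and carry the endostatin-like domains. Col15a1 was at -0.781, -0.492, -0.448, -0.469, -0.277 and -0.264, negative in every mouse (mean -0.46 ± 0.19, n = 6; limma, adjusted p = 0.00678). Col18a1 was at -0.17 ± 0.16 (SD, n = 6; limma, adjusted p = 0.0828), with mouse 3 at 0.11 and the others between -0.357 and -0.093. Col15a1 was below Col18a1 in 6 of 6 mice, with a mean difference of -0.28 ± 0.22 (exact permutation p = 0.0312, adjusted p = 0.0536). Counting both with collagen IV would move the basement membrane median from -0.04 to -0.13.

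FACIT collagens coat fibrils without forming them, and 2 of the 6 tested chains passed, Col9a3 and Col12a1, beside 24.4% of all tested probes. Col9a3, a chain of the type IX collagen that decorates cartilage fibrils, was at 1.291, 0.56, 0.727, 0.93, 0.566 and 0.846. It was positive in every mouse, mouse 3 included, with a mean of 0.82 ± 0.27 (SD, n = 6), 1.77-fold apart (limma, adjusted p = 0.00383). Its partner chains had smaller ratios that did not pass: Col9a2 was at 0.19 ± 0.19 (n = 5; limma, adjusted p = 0.122) and Col9a1 at 0.08 ± 0.05 (n = 6; limma, adjusted p = 0.131). Col12a1, which coats type I fibrils, was at 0.22 ± 0.14 and positive in 5 of 5 mice (limma, adjusted p = 0.0429), but did not pass when mouse 1, 2, 4, 5 or 6 was left out (adjusted p up to 0.13). Col16a1 was positive in 5 of 5 mice at 0.14 ± 0.06 and just missed the threshold (limma, adjusted p = 0.0508). Col14a1 was at -0.06 over 4 mice.

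The other measured chains did not pass. Col8a1, of the network under endothelium, was at 0.12 ± 0.06 and positive in 5 of 5 mice (limma, adjusted p = 0.0867). The transmembrane chains Col13a1, Col17a1 and Col23a1 were at -0.12, 0.04 and -0.05, and Col26a1 at 0.05. Col13a1 had a wide spread, from -0.667 in mouse 3 to 0.373 in mouse 2. With fewer than 4 values, Col10a1 lay between -0.051 and 0.067 and Col20a1 between 0.016 and 0.254 in 3 mice each, and a second Col14a1 probe was at -0.044 and 0.063 in 2. Col7a1, Col19a1, Col22a1 and Col25a1 had no value. In all, 10 of the 52 matching probes had no value and 6 had 2 or 3.

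Among modifying enzymes, 5 of 9 probes passed, or 55.6%, against 24.4% of all tested probes. This count of probes includes both probes of Plod1, which had opposite signs, so it overstates the number of genes. Of the 4 negative calls 3 were lysyl oxidases. Lox, the founding crosslinking enzyme of collagen and elastin, was at -1.355, -0.815, -0.984, -0.423 and -0.737 in mice 1, 3, 4, 5 and 6. All 5 values were negative, and mouse 3 lay in the middle of them (mean -0.86 ± 0.34, n = 5; limma, adjusted p = 0.00768). Loxl1, which crosslinks elastin as well as collagen, was at -0.3, -0.709, -0.575, -0.673, -0.415 and -0.627, with a mean of -0.55 ± 0.16 (SD, n = 6; limma, adjusted p = 0.0035). Loxl2, which acts on collagen IV, was negative in 6 of 6 mice at -0.29 ± 0.16 (limma, adjusted p = 0.0175). Its probe lies beside a stronger one, and it did not pass without mouse 2 (adjusted p = 0.0588). Loxl4 was at 0.07 ± 0.10 (n = 6; limma, adjusted p = 0.298), and Loxl3 had no value.

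Lysyl hydroxylase 1 gave opposite calls from its 2 probes. Probe 12833 was at -0.767, -0.715, 0.072, -0.479, -0.349 and -0.422 (mean -0.44 ± 0.30, n = 6; limma, adjusted p = 0.0234). Probe 8467 was at 0.205, 0.317, 0.175, 0.484 and 0.478 in mice 1, 2, 3, 4 and 6 (mean 0.33 ± 0.15, n = 5; limma, adjusted p = 0.0148). They lay apart in each of the 5 mice with both, by 0.103 in mouse 3 and at least 0.9 elsewhere, so no direction is given for Plod1. Neither call held without mouse 2 or mouse 4, nor that of probe 12833 without mouse 6. Plod2, which hydroxylates the telopeptides and so the sites of stable crosslinks, was at 0.088, -0.11, -0.232, -0.202, -0.461 and -0.558 (mean -0.25 ± 0.23, n = 6; limma, adjusted p = 0.0712). It passed with array weights or without mouse 1 (adjusted p = 0.0352 and 0.0327). Plod3 was at -0.10 ± 0.19 (n = 6; limma, adjusted p = 0.328). The prolyl hydroxylase P4ha2 was at 0.03 ± 0.31 (n = 6; limma, adjusted p = 0.862), from -0.518 in mouse 3 to 0.399 in mouse 1. P4ha1 had 3 values, 0.095, 0.104 and -0.126 in mice 1, 2 and 3.

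Mouse 3, in which Clca1 and Retnla, a secreted protein of alternatively activated macrophages, were positive at 0.842 and 1.005, still had 5 of 34 members at -0.5 or below, or 14.7%. Over all tested probes of that array the share was 2.21%. These were Col1a1 at -0.914, Lox at -0.815, Col13a1 at -0.667, Loxl1 at -0.575 and P4ha2 at -0.518. Col1a1, Lox and Loxl1 were negative in every mouse with a value, while Col13a1 and P4ha2 had no constant sign. In the other mice 6 to 8 members lay at -0.5 or below, 18.8% to 26.7% of those measured, against 5.9% to 9.78% of all probes. Col9a3 was the only member at 0.5 or above in any of the 6 arrays.

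Since the arrays differ in spread, the place of a member within its own array was also taken. Col1a1 was the probe 24 from the lowest in mouse 3, a percentile of 0.22, and lay between percentiles 0.3 and 2.56 in the other mice. Col3a1 lay between 0.22 and 0.71 in mice 1, 2, 4, 5 and 6 and at 31.4 in mouse 3. Col9a3 was between percentiles 95.5 and 99.6 in all 6 mice, and in mouse 3 it was the probe 43 from the highest. Col1a1 and Col3a1, both fibrillar, thus lay at or below percentile 2.56 in mice 1, 2, 4, 5 and 6, and only Col1a1 did in mouse 3. Low percentiles did not mean like ratios. Col1a1 minus Col3a1 was 1.002, 1.182, -0.839, 0.389, -0.183 and -0.231 in mice 1 to 6.

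**Figure D4:**
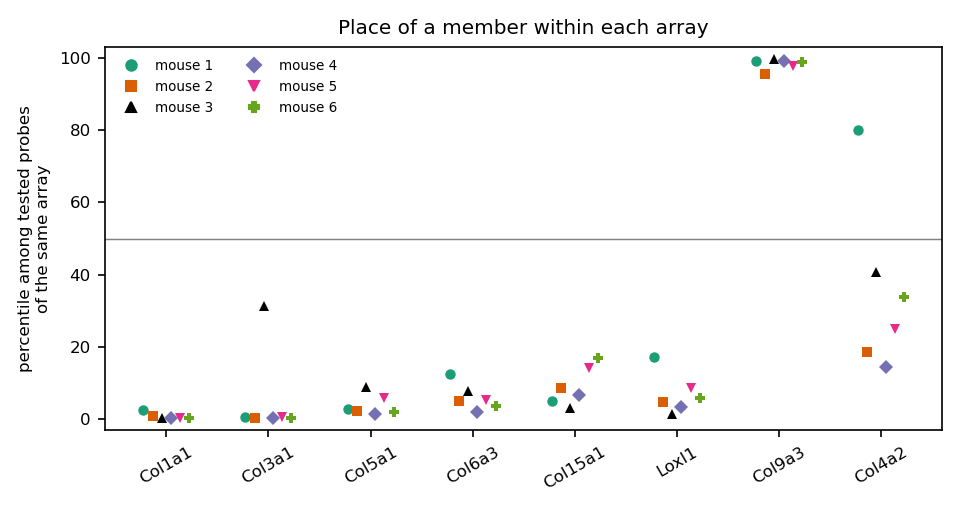
Percentile of 8 members among the tested probes of the same array (y axis, 0 is the most negative ratio) in each of the 6 mice (symbols). Col1a1 stays at or below 2.56 in all mice, Col3a1 lies at 31.4 in mouse 3, and Col9a3 stays at or above 95.5.

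Other genes of collagen making and assembly were called on both sides in shares to be read against the 24.4% of all tested probes that passed (12.3% negative and 12.0% positive), and most did not pass. Of 12 tested genes of procollagen folding, secretion and trimming, 3 passed with negative ratios and 2 with positive ones. Serpinh1 (Hsp47), the chaperone dedicated to procollagen, was at -0.749, -1.068, -0.921, -1.026, -0.624 and -1.058. Mouse 3 lay among the others, and the mean was -0.91 ± 0.18 (SD, n = 6; limma, adjusted p = 0.00163). Sec24d, a coat protein of the vesicles that carry procollagen, was at -0.46, and Pcolce2, an enhancer of propeptide removal, at 0.81 ± 0.68 with mouse 3 at -0.042. Of 10 fibril partners 1 was negative, Sparc at -0.46, and 2 were positive, Omd at 1.36 and Tnxb, which spaces fibrils, at 1.29. Of 12 basement membrane partners, Nid1, which links laminin to collagen IV, passed at -0.55 ± 0.21 and the proteoglycan Hspg2 at 0.22 ± 0.07, while no laminin chain passed.

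Of 11 genes of collagen receptors and turnover, 3 passed, a share near the 24.4% of all tested probes, and all were negative: the inhibitory collagen receptor Lair1 of leukocytes at -1.29, the neutrophil collagenase Mmp8 at -0.41 and the membrane collagenase Mmp14 at -0.31. Of 8 TGF-beta genes, Ltbp1, Tgfbi and Tgfbr2 passed on the negative side at -1.14, -0.71 and -0.43, and Ltbp4 on the positive side at 0.98.

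Markers of cells and tissues that make or surround collagen were set beside these values. Their counts are to be read against the 24.4% of all tested probes that passed (12.3% negative and 12.0% positive). Of 12 tested fibroblast markers, 1 was negative, S100a4 at -1.14, which leukocytes also express, and 3 were positive, Gsn at 0.73, Pi16 at 0.59 and Pdgfra at 0.45. Smooth muscle and myofibroblast markers had 1 call on each side among 7, Cnn1 at -0.20 and Synpo2 at 0.17, and cartilage markers 0 among 7, with medians of -0.04 and 0.05. Of the 4 tested mesothelial markers 0 passed (median 0.10). Heart muscle markers passed on the positive side for 6 of 8 genes (median 1.09), adipocyte markers for 5 of 7 (median 1.32) and endothelial markers for 5 of 9 (median 0.36). Macrophage markers passed on the negative side for 3 of 6 (median -0.35) and proliferation markers for 4 of 6 (median -1.30). Among these calls, Myh6, Tek, C1qc and probe 12077 of Car3 lie beside a stronger probe of the same sign. The adipocyte gene Car3 was counted through that probe alone. Its other probe, 528, had a larger mean of 1.75 but did not pass (limma, adjusted p = 0.0558). In mouse 3 the medians of heart, adipocyte, macrophage and proliferation markers were 0.052, 0.417, 0.182 and 0.064. Single markers spread widely around these medians. In mouse 3 the heart markers Nppb, Myl4 and Myh6 were at 0.987, 0.098 and 0.006. The adipocyte markers Cidea, Ucp1 and Adipoq were at 1.713, 0.852 and 0.417 in that mouse. Members differed in that mouse: Col1a1 was at -0.914 and Lox at -0.815, while Col3a1 was at -0.075, Col5a1 at -0.267, Col6a2 at 0.099 and probe 12833 of Plod1 at 0.072. Ratios give no level, so no marker can be called absent, and the part of these lists in the collagen ratios was not tested.

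**Figure D5:**
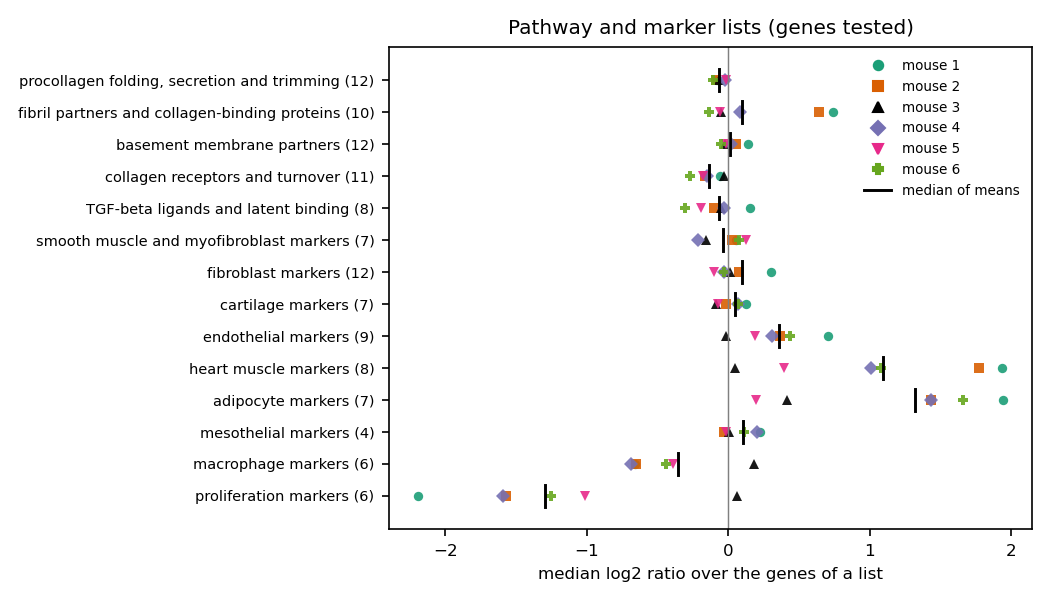
Median log2 ratio (x axis) over the tested genes of each pathway or marker list, in each of the 6 mice (symbols), with the median of mean ratios as a bar and the number of genes in brackets. Fibroblast, smooth muscle and cartilage lists lie around 0, heart and adipocyte lists at 1.09 and 1.32, and the proliferation list at -1.30, with mouse 3 near 0 in most lists.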

How the data were processed

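Lungs of 6 OVA mice were compared with 1 pool of control mice on 6 arrays. The authors deposited 1 log ratio per probe and array, read here as log2. Scanner, dyes, background correction, normalization and the logarithm's base were not given in the sources used here. Of 17280 probes, 14722 had 1 platform symbol, 1 had several and 2557 had none. Symbols were updated through RefSeq (GRCm38.p6). The rows of 10 sequences spotted 17 times each (170 rows) and 4 plant rows were left out of tests. The array medians, from -0.012 to 0.008, were subtracted. The repeated spots had median SDs between 0.0812 and 0.226 within an array, and 22 members had a mean of smaller size than 0.226.

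The ratio of each probe with at least 4 values was compared with 0 in R 4.3.3 by limma 3.58.1 (lmFit, eBayes, two-sided), with Benjamini-Hochberg adjustment over all 11629 probes, after a check on simulated data. The pool is 1 control sample, so variation among control mice is not in the test. As no dyes are given, dye effects cannot be taken to cancel. The labels number the mice as separate animals. The p-values set the mean ratio against the spread between these 6 samples. Anything peculiar to the pool is shared by all 6 ratios and can give a small p-value. The number of arrays limits the precision. Class medians average the probes of a gene. Pairs of chains were compared by an exact sign-turning permutation test, chosen after the values were seen. Probes 6, 18 or 24 rows from a stronger probe (at least 2-fold apart, same sign) were called beside it. Members and lists were chosen with earlier results of these data known. The naming rule took members past the threshold with a mean of at least 0.5 in size, partner chains, Lox, Plod2 and P4ha1. It also took up to 3 passing genes per list, and the other members are given by mean. Clca1, Muc5ac, Retnla, Sftpc, Scgb1a1 and Car3 were named after their values were seen. Alternatives were no centring, scaling, stricter value minimums, array weights, robust eBayes, genes in place of probes, omission of neighbours, a threshold of 0.01, other class summaries and leaving out each mouse. Python 3.11.15 with matplotlib 3.10.9 drew the figures.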

Additional observations from a re-analysis of the deposited data

Results flagged for a closer look

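No member had a mouse far from the others by Dixon's criterion at 95%, which chance meets in about 1 of 20 groups. Among the named genes of the lists, Mmp14 was at 0.064 in mouse 3, where the nearest other mouse was at -0.337, and Pi16 was at 0.88 in mouse 6, where the nearest was at 0.574.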

How the results depend on the processing

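Of 17 member probes followed under 8 other settings, 128 values were obtained (Lox, Col5a2, Col12a1 and probe 8467 of Plod1 have fewer than 6 values and could not be fitted on all 6 arrays, the Plod1 probes merge when genes are averaged, and Col6a2 and Loxl2 drop out with neighbours of stronger probes). Of these 127 kept their side of the threshold, and Plod2 passed with array weights. Leaving out single mice gave 102 values, of which 85 kept their side, 16 lost it (Col6a2, Col12a1, Loxl2 and both Plod1 probes) and 1 gained it (Plod2), and no called mean changed sign. At an adjusted p of 0.01, 7 members passed, 1 of them 2-fold apart, and 746 probes in all. With the probes of a gene averaged, 12 of 35 members passed, 10 of them negative, against 2501 of 9774 genes in all. Leaving out each mouse gave 1332 to 3017 probes in all and 9 to 17 members, 2 to 3 of them 2-fold apart. The lowest total was without mouse 4, beside 1374 without mouse 2 and 1719 without mouse 6. Over members on all 6 arrays the median was -0.15 for other chains and -0.25 for enzymes, for which it was -0.25 as a mean and -0.10 without neighbours of stronger probes. The median of other chains was 0.04 without neighbours of stronger probes or without types XV and XVIII, so its sign is not settled. The cause was not tested beyond the smaller number of genes. The fibrillar minus basement membrane difference ran from -0.69 to -0.54 on leaving out single mice. The choice of chains moved it further, to -0.49 with types XV and XVIII counted as basement membrane. Over chains on all 6 arrays it was -0.78.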
